A study of Homo sapiens with 20 samples.

Results

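The extrinsic apoptosis pathway was examined through 7 genes, which were taken by gene name from a gene table of 60719 genes and an isoform table of 232184 isoforms. They are the death receptors FAS, TNFRSF10A and TNFRSF10B, the adaptor FADD, the initiator caspases CASP8 and CASP10, and the inhibitor CFLAR. All 7 genes passed the filter on low counts, and 93 isoforms in the isoform table belong to them, of which 38 passed the same filter. RNA was sequenced from WT Jurkat cells, an established human T lymphoblastoid line, and from JinB8 (CD47-), a somatic mutant of Jurkat that lacks CD47 on its surface. CD47 is a cell surface receptor for thrombospondin-1 (TSP1), a secreted matricellular protein. Each line was sequenced untreated at 1 h and at 1, 3 and 6 h on plates coated with antibodies to CD3 and to CD28 (CD3+CD28), on the same antibodies with TSP1 added at 1 µg/ml (CD3+CD28+TSP1), or with TSP1 alone (TSP1). All cells were in serum-free HITES medium. This gave 10 libraries per line, with 1 library of each condition in each line and no untreated library at 3 or 6 h. The CD47- cells are a single mutant line, so the loss of CD47 and any other difference between the 2 lines cannot be told apart. The p-values measure the spread between these libraries, since no condition was sequenced again.

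Death receptors are members of the tumor necrosis factor receptor family that carry an intracellular death domain. When FAS binds FAS ligand, or when TNFRSF10A (DR4) and TNFRSF10B (DR5) bind TRAIL, the death domains recruit FADD. FADD in turn brings procaspase-8 and procaspase-10 together in the death-inducing signaling complex, where they activate each other and go on to cleave the executioner caspases. CFLAR (c-FLIP) resembles caspase-8 and joins the same complex, but lacks its catalytic activity, and its amount relative to caspase-8 sets how readily the complex fires. In T cells this pathway ends responses through activation-induced cell death, while caspase-8 and c-FLIP are also needed for T cells to expand.

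Library totals ranged from 20483642 to 31737616 expected counts in WT cells and from 16107921 to 28525524 in CD47- cells. Values below are CPM, the counts of a gene relative to the library total after scaling by TMM factors. The mean level of CD47 mRNA was 317 ± 42.1 CPM in WT cells, against 147 ± 12.6 CPM in CD47- cells (mean ± SD, n = 10 per line), with no overlap between the lines. All 9 T cell markers examined were above 1 CPM. Their summed level was 1834 to 2465 CPM across WT libraries and 1683 to 2647 CPM across those of the mutant. Singly, 6 were higher and 1 was lower in CD47- cells (edgeR quasi-likelihood test, adjusted p under 0.05), beside 19.8% and 20.6% of all genes tested. CD28 was higher by 5.10-fold, CD2 by 2.70-fold and CD7 by 2.33-fold, and TRBC1 was lower by 1.74-fold. Of 15 markers of B cells, myeloid cells, epithelium and fibroblasts, the only one that was above 10 CPM in any library was the B cell gene CD79A, which spanned 33.9 to 53.9 CPM across WT libraries and 4.15 to 9.97 CPM across CD47- ones. The CD47- library of CD3+CD28+TSP1 at 3 h stood apart. It had the smallest total and the largest scaling factor, 1.20, where the other 19 factors lay between 0.886 and 1.07, and values without it are given beside the calls that it changed.

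In the comparison of the lines, TNFRSF10A was higher in CD47- cells, at 5.21-fold the WT level, and CFLAR was higher at 1.21-fold. CASP8 was lower by 1.63-fold and FAS was lower by 1.41-fold. FADD, TNFRSF10B and CASP10 did not pass the edgeR test, and FADD was close to the threshold. These were 4 of 7 genes at an adjusted p under 0.05 (edgeR quasi-likelihood test, Benjamini-Hochberg over 16327 genes), beside 40.4% of all genes tested. In bulk RNA, fewer cells that express a gene and less of its RNA per cell cannot be told apart. When libraries of the same treatment and time were taken as matched pairs, all 7 genes passed the test, beside 54.9% of all genes in that fit.

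**Figure D1:**
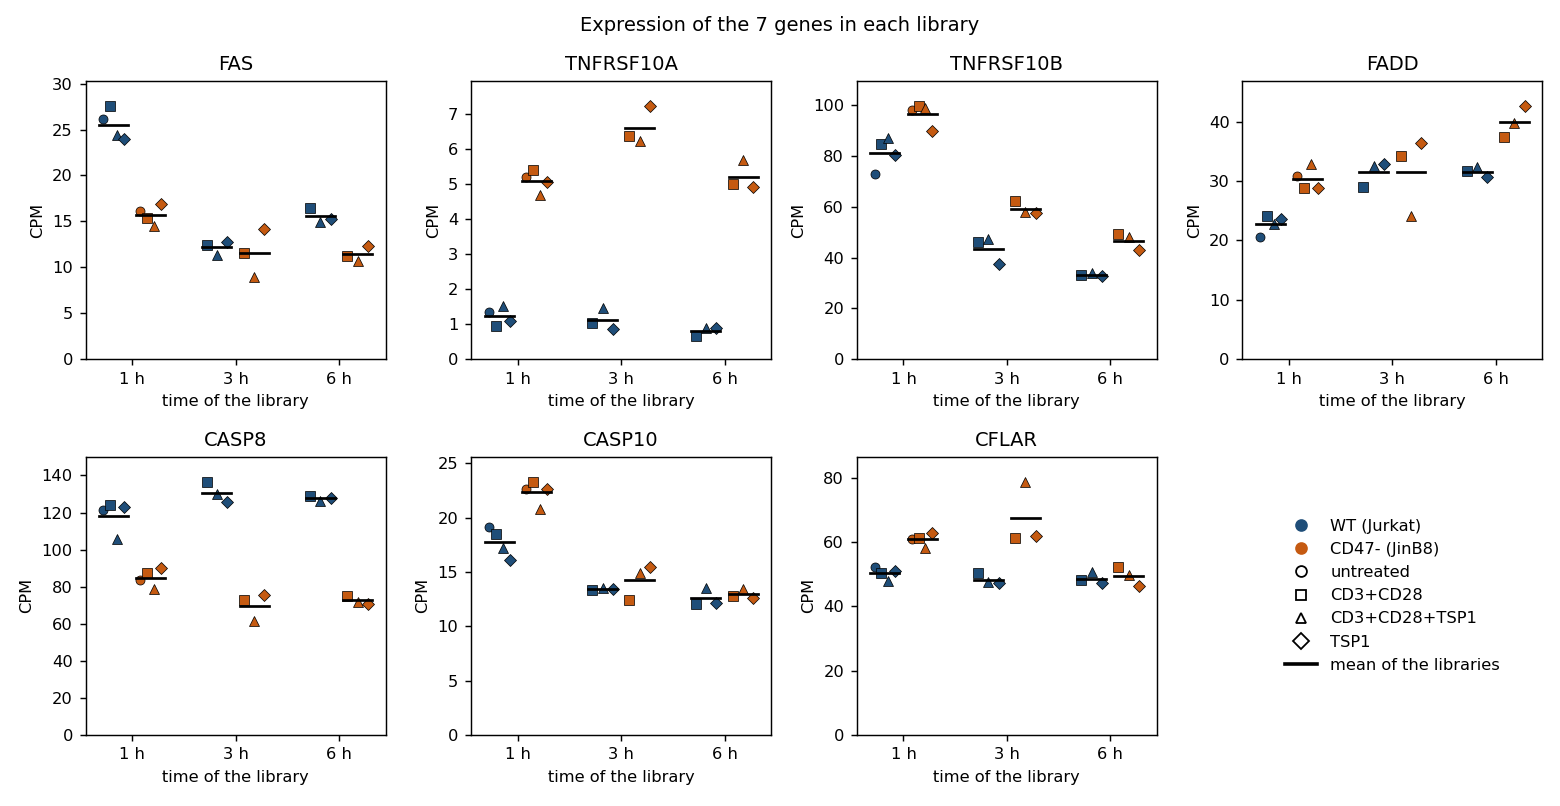
Expression of the 7 genes in each library, in CPM on axes that start at 0, against the time of the library. Each point is 1 library (blue for WT, orange for CD47-, the shape giving the treatment) and each bar is the mean of the 3 or 4 libraries of a line and time, and TNFRSF10A and CASP8 show no overlap between the lines while TNFRSF10B falls with time in both.

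**Figure D2:**
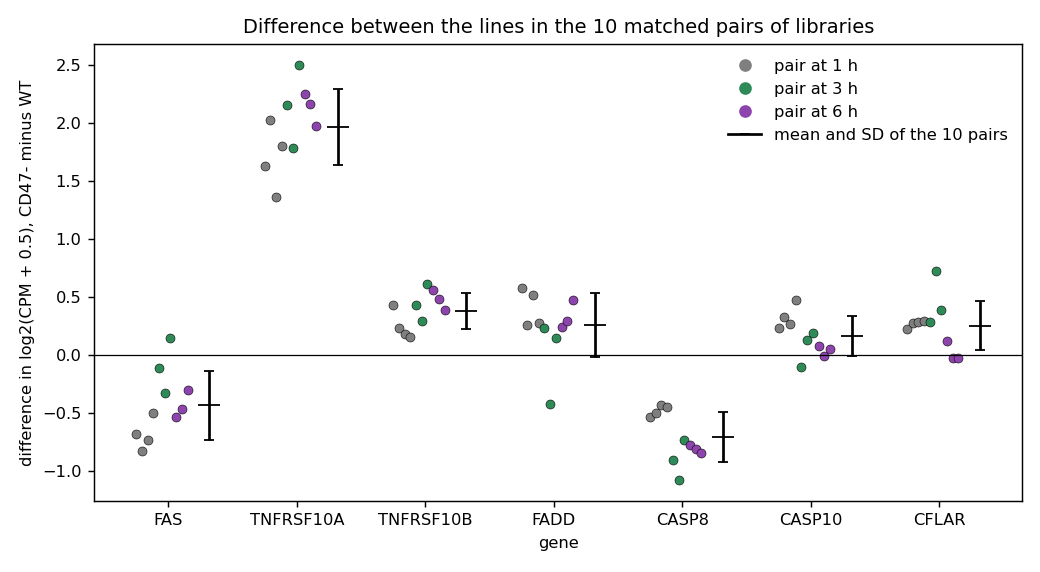
Difference between the lines in log2(CPM + 0.5) for each of the 10 pairs of libraries that share treatment and time, with the mean and SD of the pairs to the right of the points. TNFRSF10A and TNFRSF10B lie above 0 in all 10 pairs and CASP8 lies below 0 in all 10, whereas FAS, FADD, CASP10 and CFLAR each have 1 or 2 pairs on the other side.

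Levels were ordered within each line after dividing by the mean transcript length of each gene, weighted by its isoform counts. CASP8 stood highest in both lines, at 50.9 ± 3.25 CPM per kb in WT and 31.2 ± 3.50 CPM per kb in CD47- cells, and in WT cells its lowest library was above the highest library of every other gene, while in CD47- cells it overlapped with TNFRSF10B. FADD followed at 16.4 ± 2.76 and 19.7 ± 3.30 CPM per kb, and TNFRSF10B at 15.3 ± 6.33 and 19.4 ± 6.45 CPM per kb. Over all times the ranges of these 2 neighbours overlapped in both lines, but their order crossed with time. TNFRSF10B was above FADD in every library at 1 h, at 22.4 ± 1.73 against 13.3 ± 0.918 CPM per kb in WT and 26.7 ± 1.29 against 17.8 ± 1.14 in CD47- cells, and below it in every library at 6 h, at 9.20 ± 0.202 against 18.5 ± 0.510 and 12.9 ± 0.938 against 23.4 ± 1.51. FAS was at 6.57 ± 2.22 and 4.67 ± 0.924 CPM per kb, and CFLAR was at 5.92 ± 0.225 and 7.14 ± 1.07 CPM per kb, with ranges that overlapped in both lines. FAS was above CFLAR in WT cells at 1 h, at 9.05 ± 0.576 against 6.07 ± 0.224 CPM per kb, and below it at 3 h, at 4.32 ± 0.255 against 5.82 ± 0.199, with overlap at 6 h. In CD47- cells FAS was below CFLAR in every library at each time. CASP10 was at 3.01 ± 0.528 and 3.45 ± 0.941 CPM per kb, and TNFRSF10A was lowest at 0.409 ± 0.108 and 2.14 ± 0.305 CPM per kb. The range of CASP10 overlapped with those of FAS and TNFRSF10A in CD47- cells and with neither in WT cells. Within a time, CASP10 overlapped only with TNFRSF10A at 3 h in CD47- cells, at 2.50 to 3.12 against 2.38 to 2.76 CPM per kb. Annotated lengths covered 83.5% of the isoform counts of FAS, 85.7% of those of CASP10, and over 96% of those of each other gene.

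Among the receptors, TNFRSF10A (ENSG00000104689.10, minus strand, chr8:23190452-23225102 in GRCh38), a receptor for TRAIL, was low in WT cells. Its level had a lowest, median and highest value of 0.659, 0.999 and 1.52 CPM in WT and 4.70, 5.32 and 7.22 CPM in CD47- cells. Every CD47- library was above every WT library. This is a log2 fold change of 2.38 ± 0.146 (SE), with an adjusted p of 7.43e-12 by edgeR. The WT values rest on 15 to 34 counts per library, against 112 to 174 counts in CD47- cells, so small changes within WT cells were not resolved at this depth.

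TNFRSF10B (ENSG00000120889.13, minus strand, chr8:23020133-23069031), the other agonistic TRAIL receptor and a near neighbour of TNFRSF10A in the genome, was much more abundant. It was at 32.6, 46.6 and 87.2 CPM (lowest, median and highest) in WT and at 42.9, 60.0 and 99.7 CPM in CD47- cells. The ranges overlapped across the time points, but each CD47- library was above the WT library of the same treatment and time in 10 of 10 pairs. The log2 fold change was 0.34 ± 0.223 with an adjusted p of 0.233 by edgeR without pairs, and 0.38 with an adjusted p of 3.67e-05 with the 10 pairs as a block. Reads of RHOBTB2, which overlaps TNFRSF10B on the opposite strand, averaged 11.6 CPM (WT) and 13.0 CPM (CD47-), and the strand setting of the counting is not given in the sources used here.

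FAS (ENSG00000026103.22, plus strand, chr10:88953813-89029605), the receptor for FAS ligand, was lower in CD47- cells. It was at 11.4, 15.9 and 27.5 CPM (lowest, median and highest) in WT and at 8.97, 13.2 and 16.9 CPM in CD47- cells, with overlap, and it was lower in CD47- cells in 9 of 10 pairs. The log2 fold change was -0.49 ± 0.170 with an adjusted p of 0.0245 by edgeR. The call was lost when any of the 4 WT libraries at 1 h was left out, or the CD47- library of CD3+CD28+TSP1 at 3 h, with adjusted p between 0.0517 and 0.0596. It was also lost with the 12 activated libraries alone (-0.55, adjusted p = 0.0894), the 8 unactivated ones alone (-0.37, adjusted p = 0.341) and those at 3 h alone (-0.07, adjusted p = 0.786). The difference was largest at 1 h, where FAS was at 25.5 ± 1.63 CPM in 4 WT libraries and 15.7 ± 1.03 CPM in 4 CD47- libraries, with no overlap. At 3 h it was at 12.2 ± 0.720 and 11.6 ± 2.59 CPM in 3 libraries each, with overlap. STAMBPL1, which shares exonic sequence with FAS on the same strand, averaged 29.0 CPM (WT) and 17.4 CPM (CD47-), and its part in the FAS counts was not tested.

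FADD (ENSG00000168040.5, plus strand, chr11:70203296-70207390), the adaptor that links the receptors to the caspases, was at 20.6, 29.8 and 32.9 CPM (lowest, median and highest) in WT and at 24.1, 33.6 and 42.6 CPM in CD47- cells. The ranges overlapped, and FADD was higher in CD47- cells in 9 of 10 pairs. The log2 fold change was 0.26 ± 0.109 with an adjusted p of 0.0602 by edgeR, and 0.26 with an adjusted p of 0.0130 with the pairs as a block. The lowest CD47- value, and the pair with the opposite direction, was the library of CD3+CD28+TSP1 at 3 h. Without that library the log2 fold change was 0.32 and the adjusted p was 0.0163. FADD also passed with DESeq2, limma voom, upper-quartile factors or a filter of 1 CPM in every library (adjusted p = 0.0401, 0.0484, 0.0365 and 0.0499), and in 7 of 20 fits that each left out 1 library.

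Among the caspases, CASP8 (ENSG00000064012.22, plus strand, chr2:201233443-201361836), the main initiator caspase of this pathway, was lower in CD47- cells in every pair. It was at 106, 126 and 136 CPM (lowest, median and highest) in WT and at 61.3, 75.2 and 90.2 CPM in CD47- cells, and no CD47- library reached the lowest WT library. CASP8 had a log2 fold change of -0.70 ± 0.067 with an adjusted p of 1.42e-08 by edgeR. It kept its sign and passed the test in each of the 31 other settings, from -0.48 in the libraries at 1 h to -0.90 in those at 3 h.

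CASP10 (ENSG00000003400.15, plus strand, chr2:201182872-201229428), a paralog of CASP8 encoded beside it, was not lower in CD47- cells. It was at 12.04, 13.5 and 19.2 CPM (lowest, median and highest) in WT and at 12.4, 15.2 and 23.3 CPM in CD47- cells, with overlap. Its log2 fold change was 0.20 ± 0.142 with an adjusted p of 0.277 by edgeR, and 0.17 with an adjusted p of 0.0377 with the pairs as a block. At 1 h the lines did not overlap, since 4 CD47- libraries were at 20.8 to 23.3 CPM and 4 WT libraries were at 16.1 to 19.2 CPM.

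CFLAR (ENSG00000003402.20, plus strand, chr2:201116154-201176687), the inhibitor, lies beside CASP10 and CASP8 on chromosome 2. It was steady in WT cells, at 47.2, 49.2 and 52.3 CPM (lowest, median and highest), and it spread from 46.4 to 78.8 CPM in CD47- cells with a median of 61.2 CPM. The log2 fold change was 0.27 ± 0.075 with an adjusted p of 0.00604 by edgeR. The highest value was the CD47- library of CD3+CD28+TSP1 at 3 h, and without it the log2 fold change was 0.24 with an adjusted p of 0.00427. The call was lost with the 12 activated libraries alone (0.31, adjusted p = 0.0532), with the 8 unactivated ones alone (0.25, adjusted p = 0.221) and at 6 h alone (adjusted p = 0.592). CFLAR was higher in CD47- cells in all 4 pairs at 1 h and all 3 at 3 h, but at 6 h it was at 48.6 ± 1.77 CPM (WT) and 49.5 ± 2.98 CPM (CD47-).

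CFLAR makes several transcripts that share the exons for the paired death effector domains and then part. CFLAR-201 (480 amino acids) encodes the long form of c-FLIP with a caspase-like domain, CFLAR-202 (221 amino acids) encodes the short form, and CFLAR-205 (250 amino acids) reads on into a different last exon. The sequences at the branch are shown because they separate the isoforms that were counted, all from the plus strand of chromosome 2 in GRCh38. After the last exon they share, CFLAR-201 and CFLAR-202 continue with an exon of 83 bases, printed in capitals with 10 intron bases in lower case on each side, at chr2:201140347-201140449. CFLAR-205 instead uses an exon whose coding part is at chr2:201136198-201136427, and CFLAR-202 ends in an exon whose coding part is at chr2:201141374-201141433, both with the stop codon in capitals.
CFLAR-201 and CFLAR-202, next exon: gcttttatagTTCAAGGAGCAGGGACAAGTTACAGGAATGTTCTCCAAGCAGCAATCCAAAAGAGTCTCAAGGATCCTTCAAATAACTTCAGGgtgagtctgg
CFLAR-205, last exon: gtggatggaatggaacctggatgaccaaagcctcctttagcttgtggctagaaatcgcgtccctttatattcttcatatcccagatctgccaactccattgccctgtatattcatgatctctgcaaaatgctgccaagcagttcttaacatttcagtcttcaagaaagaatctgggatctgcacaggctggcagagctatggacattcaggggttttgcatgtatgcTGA
CFLAR-202, last exon: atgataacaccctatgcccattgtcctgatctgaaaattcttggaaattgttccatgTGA

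The isoform counts moved with the line at this branch. CFLAR-205 took 24.7 ± 3.32% of the CFLAR counts in WT cells, between 18.6% and 28.7% with a median of 24.5%. In CD47- cells it took 31.7 ± 4.76%, between 25.6% and 40.5% with a median of 30.1%, and it was higher in 9 of 10 pairs although the ranges overlapped. The difference of 7.06 points had an adjusted p of 0.00555 (two-sided permutation test, 100000 resamples, Benjamini-Hochberg over 15 isoforms), and an adjusted p of 0.0366 by an exact sign-flip test over the pairs. CFLAR-201 took 48.7 ± 2.96% in WT and 43.3 ± 3.75% in CD47- cells, a difference of -5.37 points (permutation test, adjusted p = 0.0188). Among libraries of the same time, both shares overlapped between the lines at 3 h and not at 1 or 6 h. At 3 h CFLAR-201 took 47.6% to 51.4% in WT and 45.6% to 50.1% in CD47- cells. CFLAR-205 then took 25.2% to 28.7% and 28.5% to 30.1%. CFLAR-202, which was under the minimum share for a test, took 6.21 ± 2.76% in WT and 4.51 ± 2.53% in CD47- cells and was lower in CD47- cells in 9 of 10 pairs.

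In absolute terms, CFLAR-205 averaged 286 expected counts in WT and 445 in CD47- libraries, with a log2 fold change of 0.63 ± 0.091 and an adjusted p of 3.75e-05 by edgeR over 55450 isoforms. CFLAR-201 averaged 562 and 619 expected counts, with a log2 fold change of 0.13 ± 0.108 and an adjusted p of 0.481. Shares of counts depend on isoform length, and CFLAR-201 (14612 bases) is longer than CFLAR-205 (4415 bases). After dividing counts by length, over the 13 isoforms that have a length in the annotation, the difference in share was 5.65 points for CFLAR-205 (permutation test, adjusted p = 0.0772) and -1.13 points for CFLAR-201 (adjusted p = 0.337), so neither passed the test.

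**Figure D3:**
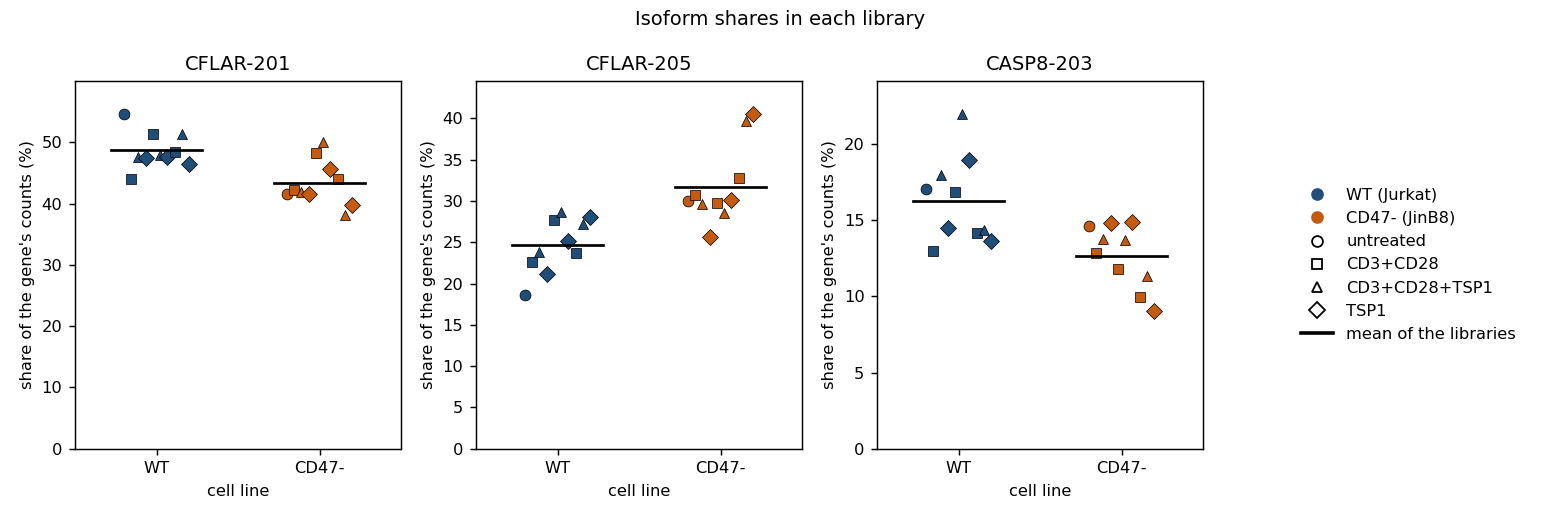
Share of the expected counts of the gene, in percent on axes that start at 0, taken by CFLAR-201, CFLAR-205 and CASP8-203 in each library. Each point is 1 library (blue for WT, orange for CD47-, the shape giving the treatment) and each bar is the mean of 10 libraries, and the shares of CFLAR-205 are higher and those of CFLAR-201 and CASP8-203 lower in CD47- cells, with overlap in each.

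For CASP8, 4 isoforms held at least 10% of the counts and 1 of them changed its share. CASP8-203 reads past the end of the seventh exon of CASP8-218 into a stop codon and is annotated as a target of nonsense-mediated decay. The coding part of that extension is at chr2:201276969-201276997, with the stop codon in capitals. CASP8-218 (479 amino acids) and CASP8-202 (464 amino acids) differ by 1 exon of 45 bases, given in capitals with its flanking intron bases in lower case at chr2:201272888-201272952, both on the plus strand of GRCh38.
CASP8-203, extension of the seventh exon: gtacagtagaacccaaaagagaaaagTAA
CASP8-218, the exon that CASP8-202 lacks: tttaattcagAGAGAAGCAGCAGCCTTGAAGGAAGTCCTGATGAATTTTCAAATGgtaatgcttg

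CASP8-203 took 16.2 ± 2.83% of the CASP8 counts in WT, between 13.0% and 21.9% with a median of 15.7%. In CD47- cells it took 12.7 ± 2.08%, between 9.01% and 14.9% with a median of 13.3%, and it was lower in 9 of 10 pairs with overlap. The difference of -3.56 points had an adjusted p of 0.0188 by the permutation test and 0.0347 after dividing counts by length. CASP8-218 took 47.4 ± 6.95% and 47.0 ± 3.83%, and CASP8-202 took 12.1 ± 4.94% and 12.9 ± 3.69%, with adjusted p of 0.973 and 0.966 (permutation test). As single isoforms, CASP8-203 fell by 1.04 ± 0.136 and CASP8-218 fell by 0.69 ± 0.102 on the log2 scale, with adjusted p of 1.04e-05 and 5.23e-05 by edgeR.

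FAS is known for a membrane form and for exon-skipped transcripts that encode soluble or truncated proteins. FAS-221 (335 amino acids) is the full-length form. FAS-204 (314 amino acids) lacks the exon of 63 bases that encodes the membrane-spanning segment, and FAS-203 (197 amino acids) lacks the following exon of 83 bases, which is not a multiple of a codon. Both exons are given in capitals with 10 intron bases in lower case on each side, on the plus strand of GRCh38 at chr10:89010743-89010825 and chr10:89011989-89012091.
FAS-221, the exon that FAS-204 lacks: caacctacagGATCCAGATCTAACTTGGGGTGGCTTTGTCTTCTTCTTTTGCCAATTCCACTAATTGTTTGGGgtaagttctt
FAS-221, the exon that FAS-203 lacks: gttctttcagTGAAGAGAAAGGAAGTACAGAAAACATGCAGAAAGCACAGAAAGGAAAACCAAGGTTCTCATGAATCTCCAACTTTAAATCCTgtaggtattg

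FAS-221 took 40.3 ± 13.7% of the FAS counts in WT and 33.7 ± 8.50% in CD47- cells, and FAS-203 took 17.3 ± 6.60% and 12.2 ± 8.16%. Neither share passed the permutation test (adjusted p = 0.463 and 0.343). A further FAS isoform, ENST00000352159.8, which has no entry in GENCODE 44, took 13.9 ± 5.64% in WT and 20.7 ± 6.31% in CD47- cells and was higher in CD47- cells in 9 of 10 pairs. Its difference of 6.78 points did not pass the permutation test (adjusted p = 0.0745) and passed the exact sign-flip test over the pairs (adjusted p = 0.0366). FAS-204, which was under the minimum share, took 1.34 ± 1.53% and 2.58 ± 2.69%. FAS-221 fell by 0.70 ± 0.206 on the log2 scale in CD47- cells, with an adjusted p of 0.0236 by edgeR, a call that was lost without the WT library of CD3+CD28+TSP1 at 1 h (adjusted p = 0.0508) or without the filter on low counts (adjusted p = 0.0551). FAS had 173 to 576 counts per library, and the part of this depth in the spread of its shares was not tested.

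Over the 7 genes, 7 of the 38 tested isoforms passed the edgeR test between the lines, beside 15.1% of all isoforms tested. These were 4 of 14 isoforms of CASP8, all lower in CD47- cells, and 1 each of CFLAR, FAS and TNFRSF10A. TNFRSF10A-201 (468 amino acids) had a log2 fold change of 2.54 ± 0.184 with an adjusted p of 2.09e-09. Of 15 isoform shares compared, 3 passed the permutation test. TNFRSF10B-201 took 67.5 ± 3.98% and 66.0 ± 7.56%, and CASP10-202 took 66.4 ± 7.70% and 66.5 ± 9.64%, with no call in either (adjusted p = 0.886 and 0.973, permutation test). FADD has 1 isoform in the table.

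The balance between the genes was compared as log2 ratios of counts within each library, which do not depend on the scaling of libraries. CFLAR to CASP8 was at -1.34 ± 0.108 in WT and -0.37 ± 0.282 in CD47- cells, with no overlap. The ratio was higher in CD47- cells in 10 of 10 pairs, by 0.97 ± 0.339 on the log2 scale or 1.95-fold (exact two-sided sign-flip test, p = 0.00195, the smallest these pairs can give, adjusted p = 0.00260 over 4 ratios). Without the pair of CD3+CD28+TSP1 at 3 h, the pair with the widest difference at 1.81, the difference was 0.87. CASP8 to CASP10 was lower in CD47- cells in 10 of 10 pairs, by a difference of -0.88 ± 0.141, with the same exact p and adjusted p. TNFRSF10B to TNFRSF10A moved from 5.60 ± 0.449 to 3.59 ± 0.569, a difference of -2.01 ± 0.335 in 10 of 10 pairs, also with the same exact p. CFLAR to CASP10 was at 1.74 ± 0.217 and 1.83 ± 0.369 and was higher in 5 of 10 pairs (exact sign-flip test, p = 0.338).

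**Figure D4:**
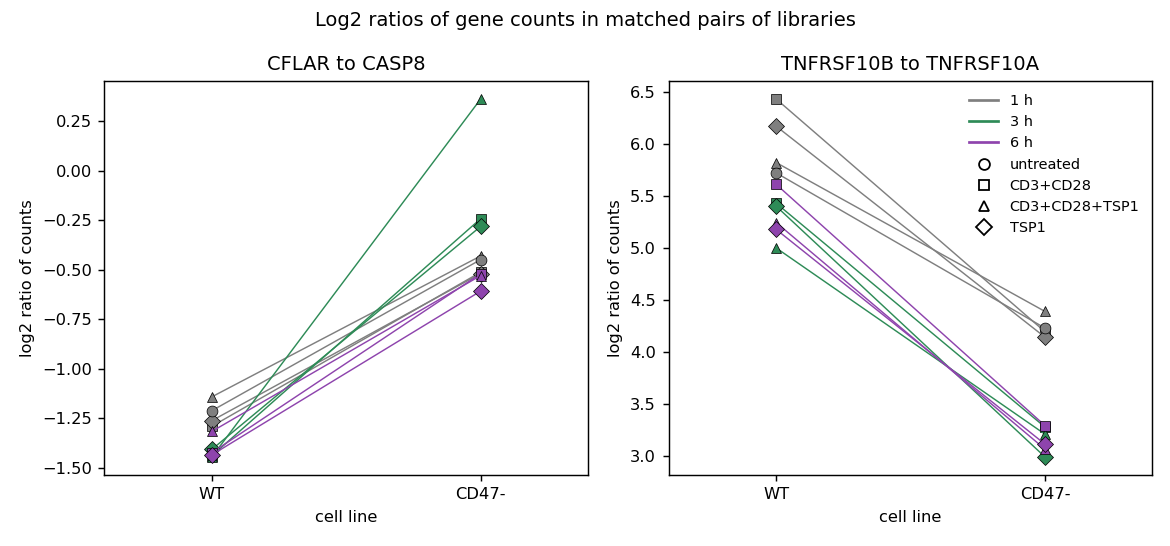
Log2 ratio of the expected counts of CFLAR to CASP8 and of TNFRSF10B to TNFRSF10A, with lines joining the WT and CD47- libraries that share treatment and time. The CFLAR to CASP8 ratio rises from WT to CD47- in all 10 pairs, most in the pair of CD3+CD28+TSP1 at 3 h, and the TNFRSF10B to TNFRSF10A ratio falls in all 10.

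Change with time was compared within each line in a model with a term for each treatment. Between 6 and 1 h TNFRSF10B had the most negative log2 fold change of the 7 genes in both lines. In WT cells it went from 81.3 ± 6.26 CPM at 1 h to 43.6 ± 5.25 at 3 h and 33.3 ± 0.732 at 6 h, a log2 fold change of -1.33 ± 0.066 between 6 and 1 h with an adjusted p of 4.34e-09 by edgeR. In CD47- cells it went from 96.7 ± 4.66 to 59.2 ± 2.53 and 46.7 ± 3.40 CPM, a log2 fold change of -1.04 ± 0.065 with an adjusted p of 2.20e-08. No library at 6 h reached any library at 1 h of its line.

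FAS and CASP10 also fell in both lines. FAS in WT cells dropped between 1 and 3 h, with a log2 fold change of -1.05 ± 0.096 (adjusted p = 3.04e-06, edgeR), and stood at -0.70 ± 0.094 at 6 h (adjusted p = 2.76e-05). In CD47- cells, where FAS began lower, the log2 fold change was -0.44 ± 0.097 at 3 h and -0.45 ± 0.097 at 6 h, with adjusted p of 0.00302 and 0.00138. CASP10 changed by -0.46 ± 0.098 in WT and by -0.78 ± 0.098 in CD47- cells between 6 and 1 h, with adjusted p of 0.00148 and 1.26e-05.

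FADD rose by 6 h in both lines, with log2 fold changes of 0.42 ± 0.122 in WT and 0.40 ± 0.120 in CD47- cells (adjusted p = 0.0101 and 0.0121, edgeR). The WT call was lost without the library of CD3+CD28+TSP1 at 1 h or of CD3+CD28 at 6 h (adjusted p = 0.0653 and 0.0540). The CD47- call was lost without the library of CD3+CD28 or TSP1 at 1 h or of CD3+CD28+TSP1 at 6 h (adjusted p = 0.0644, 0.0942 and 0.0681). At 3 h FADD had risen in WT cells, by 0.42 ± 0.122 (adjusted p = 0.0170). In CD47- cells its log2 fold change at 3 h was 0.06 ± 0.121 with all libraries and 0.27 without the library of CD3+CD28+TSP1 at 3 h (adjusted p = 0.731 and 0.0240).

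CASP8 had fallen at 3 h in CD47- cells, by a log2 fold change of -0.29 ± 0.069 (adjusted p = 0.00481, edgeR), and this call held without any 1 library (-0.34 to -0.22). CASP8 and CFLAR were lower at 6 h than at 1 h in CD47- cells, with log2 fold changes of -0.23 ± 0.069 and -0.30 ± 0.087 (adjusted p = 0.0118 and 0.00993, edgeR). The CASP8 call was lost without the CD47- library of TSP1 at 1 h or at 6 h (adjusted p = 0.0542 and 0.136). The CFLAR call was lost without either of these 2 libraries or that of CD3+CD28+TSP1 at 6 h (adjusted p = 0.0794, 0.0744 and 0.0569). In WT cells neither passed the test, with log2 fold changes of 0.12 ± 0.068 and -0.04 ± 0.087 (adjusted p = 0.153 and 0.757). With limma voom, however, CASP8 passed as higher in WT cells at 6 h, by 0.16, and at 3 h, by 0.22 (adjusted p = 0.0361 and 0.00927). With edgeR it also passed at 3 h, at 0.15, without the CD47- library of CD3+CD28+TSP1 at 3 h (adjusted p = 0.0431, against 0.0985 with it). CFLAR in CD47- cells at 3 h had a log2 fold change of 0.14 ± 0.087 with that library and 0.02 without it, and passed in neither (adjusted p = 0.218 and 0.842). TNFRSF10A in WT cells had a log2 fold change of -0.55 ± 0.217 at 6 h (adjusted p = 0.0472), which was lost with DESeq2, with limma voom, without the filter on low counts and in 12 of 20 fits that each left out 1 library, and in CD47- cells it was 0.05 ± 0.160 (adjusted p = 0.830).

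In all, 5 of 7 genes passed the test between 6 and 1 h in WT and 6 of 7 in CD47- cells, beside 50.5% and 53% of all genes tested. Between 3 and 1 h, 4 of 7 passed in each line, beside 34.3% and 38% of all genes. Leaving out 1 library lowered the WT count at 6 h to 3 (without CD3+CD28+TSP1 at 1 h or CD3+CD28 at 6 h), the CD47- count at 6 h to 3 (without TSP1 at 1 h) and the WT count at 3 h to 2 (without CD3+CD28+TSP1 at 3 h). The 3 h call of CASP10 in WT cells, at -0.36 ± 0.099 (adjusted p = 0.0119, edgeR), was lost without the library of CD3+CD28 at 1 h or 3 h or of CD3+CD28+TSP1 at 3 h (adjusted p = 0.0784, 0.0505 and 0.0549). That of FADD in WT cells was lost without the library of CD3+CD28+TSP1 or TSP1 at 1 h or at 3 h, with adjusted p between 0.0635 and 0.0823. Since the untreated cells were sequenced at 1 h only, time on the plate and the course of the treatments cannot be told apart.

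**Figure D5:**
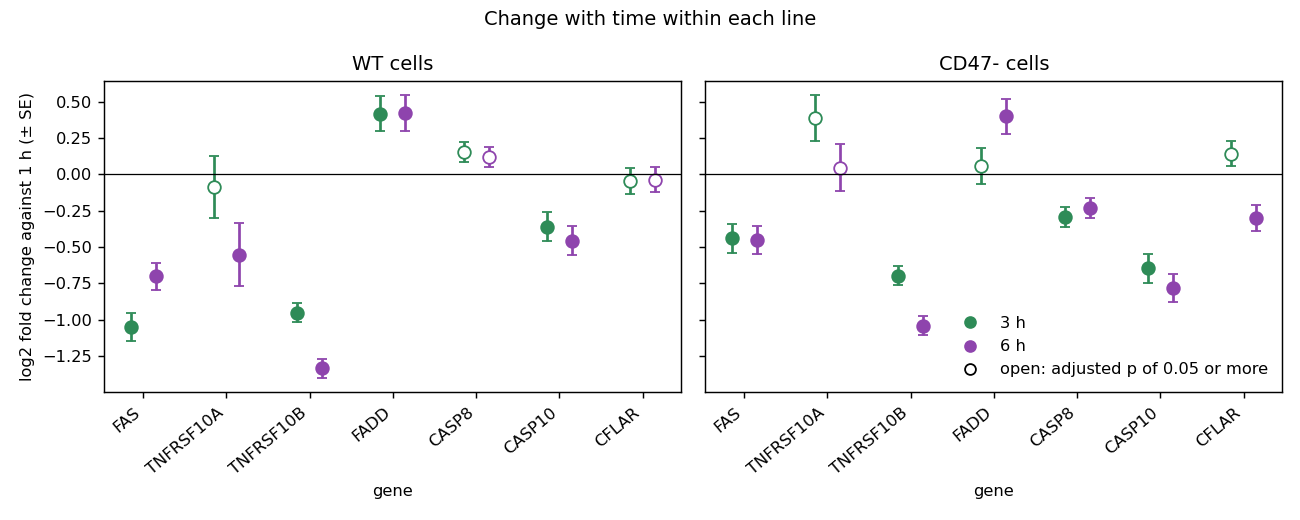
Log2 fold change against 1 h at 3 h (green) and 6 h (purple) for each gene in WT cells (left) and CD47- cells (right), with SE bars from the edgeR fit and open points where the adjusted p was 0.05 or more. TNFRSF10B, FAS and CASP10 lie below 0 at both times in both lines, FADD lies above 0, and CASP8 lies above 0 in WT cells without passing the test and below 0 in CD47- cells.

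The change between 6 and 1 h differed between the lines for 2 of 7 genes, beside 16.6% of all genes tested. For CASP8 the change was more negative in CD47- cells by -0.35 ± 0.097 on the log2 scale (interaction term, edgeR, adjusted p = 0.0245), and for TNFRSF10B it was less negative by 0.29 ± 0.091 (adjusted p = 0.0427). Without the filter on low counts neither passed (adjusted p = 0.0940 and 0.229), and leaving out 1 library ended the CASP8 call in 9 of 20 fits and the TNFRSF10B call in 10 of 20. For TNFRSF10A the difference was 0.60 ± 0.269 and for CASP10 -0.33 ± 0.138, and neither passed (adjusted p = 0.150 and 0.126). For CFLAR it was -0.26 ± 0.123 (adjusted p = 0.165), and it passed without the CD47- library of CD3+CD28+TSP1 at 3 h (-0.26, adjusted p = 0.0313).

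No gene of the 7 passed the test for TSP1 added to CD3+CD28, or for CD3+CD28 with TSP1 in both arms, in either line. Each comparison took 1, 3 and 6 h together. Neither CD3+CD28 nor TSP1 alone was tested against untreated cells. The comparison of CD3+CD28+TSP1 with TSP1 called 0 of 7 in WT and 0 of 7 in CD47- cells by edgeR, beside 0.0919% and 0% of all genes tested. That of CD3+CD28+TSP1 with CD3+CD28 called 0 of 7 in both lines, beside 0% of all genes in each. DESeq2 and limma voom also called none of the 7 in any of these 4 comparisons. At an unadjusted p under 0.05 edgeR gave 816 and 2636 genes of all tested for the first pair and 366 and 1771 for the second, and of the 7 genes 1, 2, 1 and 1. The smallest of these was FAS in CD47- cells, lower with CD3+CD28+TSP1 than with TSP1 by a log2 difference of -0.35 ± 0.098 (unadjusted p = 0.00287, adjusted p = 0.283, edgeR). The values of FAS in those libraries were 14.5 and 16.9 CPM at 1 h, 8.97 and 14.2 CPM at 3 h and 10.7 and 12.3 CPM at 6 h, the lower value each time being that of CD3+CD28+TSP1. Without the CD47- library of CD3+CD28+TSP1 at 3 h the log2 difference of FAS was -0.23 (adjusted p = 0.527, edgeR). At 1 h, the only time with an untreated library, differences in log2(CPM + 0.5) between a treated and the untreated library lay between -0.35 for TNFRSF10A in WT cells on CD3+CD28 and 0.26 for TNFRSF10B in WT cells on CD3+CD28+TSP1, from single libraries with no test.

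Other genes of the pathway were counted from a list of 38, of which 34 passed the filter. Between the lines, 12 were higher and 2 were lower in CD47- cells, beside 19.8% and 20.6% of all genes tested. The median log2 fold change was 0.22 over the list and -0.0066 over all genes. These counts are from the fit without pairs. Some genes that it did not call were higher in CD47- cells in 10 of 10 pairs, and others in 1 of 10. All 3 ligand genes that passed the filter were higher. TNF, a ligand of the tumor necrosis factor receptors, averaged 1.82 ± 1.00 CPM in WT libraries and 17.9 ± 5.59 CPM in CD47- libraries (log2 fold change 3.30 ± 0.288, adjusted p = 3.25e-09, edgeR). TNFSF10, which encodes TRAIL, was at 5.12 ± 2.47 and 12.8 ± 4.69 CPM (1.32 ± 0.262, adjusted p = 0.000288), and the lymphotoxin gene LTA was at 1.76 ± 0.550 and 4.24 ± 1.21 CPM (1.27 ± 0.192, adjusted p = 1.21e-05). All 3 were higher in CD47- cells in 10 of 10 pairs. FASLG, the FAS ligand gene, was below the filter, at 0 to 3.71 CPM across WT libraries and 0 to 1.28 CPM across CD47- ones.

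Of the other receptors, the decoy TRAIL receptor gene TNFRSF10D was at 2.02 ± 1.06 and 5.52 ± 2.23 CPM (log2 fold change 1.46 ± 0.348, adjusted p = 0.00171, edgeR), and the death receptor TNFRSF25 was at 0.889 ± 0.236 and 2.18 ± 0.451 CPM (1.29 ± 0.171, adjusted p = 2.04e-06). Downstream, BID, which carries the caspase-8 signal to mitochondria, was at 52.0 ± 11.5 and 75.3 ± 14.4 CPM (0.53 ± 0.126, adjusted p = 0.00156), and the kinase RIPK1 was at 39.4 ± 3.48 and 48.4 ± 4.33 CPM (0.30 ± 0.067, adjusted p = 0.00102). The caspase inhibitor XIAP was at 88.6 ± 10.1 and 91.6 ± 8.71 CPM and did not pass the test (adjusted p = 0.635). Between 6 and 1 h, 12 of the 34 genes were higher and 12 lower in WT, beside 25.7% and 24.8% of all genes. In CD47- cells 10 were higher and 15 lower, beside 26% and 27% of all genes.

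Within lines, the pattern of each gene over the 20 libraries, as log2(CPM + 1) centred in each line, was set beside that of the other tested genes with a mean of at least 1 on that scale. TNFRSF10B was most like SLC2A3, HECA and N4BP2L1 (Pearson r = 0.99, 0.98 and 0.98). CASP10 was most like ELF1, TLE4 and CCNG2 (r = 0.97, 0.97 and 0.96) and FAS most like IVNS1ABP, RBM39 and HSF2 (r = 0.96, 0.95 and 0.95). For FADD these were EI24, MRPS17 and SLC16A1 (r = 0.94 each), and for CASP8 they were ZNF3, GTF3C3 and GNPAT (r = 0.94, 0.90 and 0.89). CFLAR was most like SRGAP2, LATS1 and TVP23C (r = 0.89, 0.88 and 0.88). TNFRSF10A had the lowest values, with AC010996.1, ATP2A1 and CAMK2D (r = 0.79, 0.76 and 0.75). These are descriptions of libraries that share their time points, over which many genes moved together.

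The genes around the members were also compared between the lines. Within 500 kb of the span of CFLAR, CASP10 and CASP8, 15 other genes were tested, of which 7 were lower and 1 was higher in CD47- cells, beside 20.6% and 19.8% of all genes. Their median log2 fold change was -0.27. Among those called with at least a 2-fold difference was AOX1, at -1.30 ± 0.315 (adjusted p = 0.00200, edgeR). Within 500 kb of TNFRSF10B and TNFRSF10A, 20 other genes were tested, of which 5 were higher and 6 were lower, beside the same 19.8% and 20.6%, with a median log2 fold change of -0.12. Those higher by at least 2-fold were TNFRSF10D, at 1.46 as above, PDLIM2, at 1.01 ± 0.166 (adjusted p = 3.31e-05, edgeR), and AC100861.1, at 1.35 ± 0.311 (adjusted p = 0.00129), which overlaps TNFRSF10A on the opposite strand. Among those lower by at least 2-fold were EGR3, at -1.80 ± 0.683 (adjusted p = 0.0390), and the genes AC107959.1, AC105046.1 and AC104561.4 at -2.70, -2.13 and -1.50.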

How the data were processed

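RNA was sequenced from 20 libraries, 10 of WT Jurkat and 10 of CD47- JinB8 cells. The authors processed paired reads with Cutadapt 1.18 (trimming), STAR 2.4.2a (alignment to GRCh38) and RSEM 1.3.3 (counting on GENCODE 36). The deposited tables hold RSEM expected counts per gene and per isoform, not normalized. The authors' quantile normalization was run as an alternative, and their ComBat batch correction was not repeated, since the batch is not named in the sources used here. Each table also has 2 columns that belong to no sample, which were not used.

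The members and the gene lists were chosen with earlier results of these data known. Counts were rounded for edgeR 4.0.16 and DESeq2 1.42.0, not for limma 3.58.1 (R 4.3.3). Features had to pass filterByExpr with the line as group, at a minimum count of 10 and a total of 15, and were scaled by TMM factors and tested by edgeR's quasi-likelihood test, with Benjamini-Hochberg adjustment over all features and a threshold of 0.05. SE was the log2 fold change divided by the square root of the F statistic. The lines were compared over 20 libraries without further terms. Time and treatment were compared in 1 model that gives every treatment of a line its own coefficient and adds terms for 3 and 6 h per line. Isoform shares were taken of a gene's expected counts, for isoforms with a mean of at least 10%, and ratios used a pseudocount of 0.5. Libraries of the same treatment and time in the labels were taken as pairs. Deviations of paired libraries from their line's means correlated in all 10 pairs (r = 0.13 to 0.60 across genes), and 1 of 10 pairs were each other's closest match. Scripts were tested on simulated data. Positions and sequences are from GENCODE 44 and GRCh38, and isoform lengths were matched by identifier without version. All 7 members are named, and genes of the list are named where called between the lines with at least a 2-fold difference or where they are FASLG, TNFSF10, TNF, BID, RIPK1 or XIAP. For each member the 3 genes with the most alike pattern are named, and genes within 500 kb of the members are named where called with at least a 2-fold difference. Some genes that these rules name are not reported here. Alternatives were DESeq2, limma voom, other scaling, other filters, subsets of libraries, pairs as a block and leaving out each library in turn. Depth per library limits low genes such as TNFRSF10A.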

Additional observations from a re-analysis of the deposited data

Results flagged for a closer look

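Groups of 4 to 10 libraries were formed within each line and at 1 h, from CPM of the 7 genes and 15 isoform shares. Of these 88 groups, 11 had a highest or lowest library far from the others. The groups share libraries, and how many chance would give was not tested. For whole genes, CASP8 in the WT library of CD3+CD28+TSP1 at 1 h, at 106 CPM, was low among the 10 WT libraries and among the 4 at 1 h. CFLAR in the CD47- library of CD3+CD28+TSP1 at 3 h, at 78.8 CPM, was high among the 10 CD47- libraries, and this library also had the smallest total and the largest scaling factor. TNFRSF10B in the CD47- library of TSP1 at 1 h, at 89.8 CPM, was low among the 4 at 1 h.

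For isoform shares, the FAS isoform ENST00000352159.8 was at 0% in the WT library of CD3+CD28+TSP1 at 6 h and at 12.1% in the CD47- library of TSP1 at 1 h. TNFRSF10A-201 was at 54.5% in the WT library of CD3+CD28 at 3 h and at 96.3% in the CD47- library of CD3+CD28+TSP1 at 1 h, and the WT share rests on few counts. CASP8-202 was at 24.9% in the WT library of TSP1 at 6 h, CASP8-217 was at 19.3% in the CD47- library of CD3+CD28+TSP1 at 3 h, and the CASP10 isoform ENST00000360132.7 was at 24.1% in the CD47- library of CD3+CD28+TSP1 at 1 h.

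The change between 6 and 1 h differed between the lines for CASP8, by -0.35 on the log2 scale, and for TNFRSF10B, by 0.29, as an interaction term (edgeR, adjusted p = 0.0245 and 0.0427). Both were lost without the filter on low counts (adjusted p = 0.0940 and 0.229) and in 9 and 10 of 20 fits that each left out 1 library.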

How the results depend on the processing

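Every member kept the direction of its difference between the lines in each alternative that tested it. TNFRSF10A, with a lowest WT value of 0.659 CPM, was not tested under the filter of at least 1 CPM in every library. With the pairs as a block 7 of 7 members passed, with the libraries at 1 h alone 7, and with the 12 activated or the 8 unactivated libraries alone 2 each (TNFRSF10A and CASP8, with FAS and CFLAR lost), beside 4 with all libraries (3 to 5 when 1 library was left out). Those 2 subsets, which mix libraries of each time, called 4067 and 2706 genes in all, beside 6596 with all libraries. Libraries of 1 time alone called 8085 genes at 1 h, 5093 at 3 h and 9867 at 6 h. What set these counts was not tested. The block of pairs changed no call of an isoform share that had passed, and added the FAS isoform ENST00000352159.8 (4 in all), while dividing counts by isoform length, which also dropped isoforms with no annotated length (13 compared, against 15), left 1. For the comparison of CD3+CD28+TSP1 with TSP1 in WT cells, DESeq2 called 54 genes, limma voom 28 and no filter on low counts 201, beside 15, and 0 to 42 when 1 library was left out, and in CD47- cells no filter gave 538 beside 0. For CD3+CD28+TSP1 with CD3+CD28, DESeq2 called 1 and no filter 84 genes in WT, and no filter 401 in CD47- cells (0 to 1 when 1 library was left out). When 1 library was left out, 3 to 5 members passed between 6 and 1 h in WT cells, beside 6951 to 9404 genes in all. In CD47- cells 3 to 6 members passed, beside 7245 to 9653 genes. Between 3 and 1 h, 2 to 5 members passed in WT and 4 to 5 in CD47- cells, beside 4204 to 7099 and 4623 to 6220 genes. For the difference between the lines in the change with time, 0 to 3 members passed. The count of genes whose change with time differed between the lines was 1459 to 4273 when 1 library was left out. Values near 0 changed sign. TNFRSF10A between 6 and 1 h in CD47- cells was -0.054 with limma voom and -0.069 to 0.13 when 1 library was left out. TNFRSF10A between 3 and 1 h in WT cells was -0.18 to 0.074, FADD between 3 and 1 h in CD47- cells was -0.054 to 0.27, and the difference between the lines in the change of FADD was 0.050 with limma voom and -0.13 to 0.14. The cause was not tested. TNFRSF10A in WT cells had 15 to 34 counts per library, which limits its precision.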

Other observations

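Within lines, over the 20 libraries as log2(CPM + 1) centred in each line, TNFRSF10B and CASP10 varied together (Pearson r = 0.88), as did FAS with TNFRSF10B (r = 0.78) and FAS with CASP10 (r = 0.74). FADD ran opposite to TNFRSF10B, CFLAR and CASP10 (r = -0.76, -0.73 and -0.68). CASP8 and CFLAR, which lie on either side of CASP10 in the genome, had r = -0.09. These libraries share their time points, so the values describe the set and are not independent.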
